A study of Mus musculus with 108 samples.

Results

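Rab and SNARE genes of zymogen granule exocytosis were examined in individual acinar cells of the mouse pancreas, which make and secrete its digestive enzymes. The 10 genes were those on a list of mouse symbols, Rab3d, Rab27a, Rab27b, Rab11a, Vamp8, Vamp2, Stx2, Stx3, Snap23 and Stxbp2, and each matched 1 of the 45195 gene rows measured. The mice were untreated C57Bl/6 males, 12 weeks old. By the protocols given in the labels, islets were filtered out, acini were dispersed with Accutase, and each cell was lysed and amplified by a modified SMART-seq2 method, which reads whole polyadenylated transcripts without molecular identifiers. The cells formed 1 group, with no animal or day named for any of them, so cells were not treated as replicates, no test was made, and every SD or range below is the spread between cells.

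An acinar cell stores its digestive enzymes in zymogen granules at the apical pole and releases them when calcium rises after a meal. Small GTPases of the Rab family mark the granule and recruit the proteins that tether it. Fusion is driven by SNARE proteins, with a vesicle SNARE (a VAMP) on the granule pairing with syntaxin and SNAP proteins on the target membrane, and an SM protein such as Munc18 guides the pairing. Bhlha15, also called Mist1, is a basic helix-loop-helix transcription factor that acinar cells need for normal granule organisation. Rab3d has been described as one of its targets in zymogen-secreting cells.

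Values were TPM, transcript abundance as a read share corrected for transcript length, so levels of different genes can be compared within a cell. Detection below means a value of 1 TPM or more. The deposited columns of 21 cells, all with numbers from 92 up, add up to only 788380 to 990520 TPM (short-total cells). Those of the other 87 reach at least 999982 TPM (full-total cells). The number of genes detected had a median of 3939 in short-total cells, against 4224 in full-total cells. Of 10 acinar markers 9 were detected in every cell, whereas at most 1 of 11 endocrine markers and 0 of 5 lymphocyte markers were detected in any cell. Cell 40 stood apart with 5 of 6 endothelial markers, and cells 31 and 40 held all 3 proliferation genes listed. Cell 96 held 4 of 7 stellate markers, summing to 18.3 TPM. At most 2 of 5 macrophage markers were detected in any cell, as in cell 63, where the 5 summed to 5.97 TPM. At least 3 of 8 ductal markers were detected in 80 cells, with 6 in cell 15. That count includes 1 ductal marker that was detected in every cell. The cell of fewest genes, a short-total cell, had 2624. Correlations over cells are given as descriptions. The cells share their preparation, and many genes rise together with the number of genes detected.

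The 4 genes at high level were Vamp8, Rab11a, Rab3d and Stxbp2, a vesicle SNARE, 2 Rabs and an SM protein, and these were detected in at least 90% of cells. The same was true of 9.05% of the 19969 gene rows above 0 in any cell. The remaining 6 genes, among them both syntaxins and the SNAP protein, had means between 0.0552 and 2.18 TPM and were missed in many cells at the 1 TPM level. Together the 10 genes summed to a mean of 56.3 ± 12.8 TPM (SD over all cells). The lowest sum was 14.1 TPM, in the cell of fewest genes, the median 55.4 TPM and the highest 99.2 TPM, in cell 8. Between 3 and 8 of the genes were detected per cell, with a median of 6, and 38 cells had exactly that number.

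**Figure D1:**
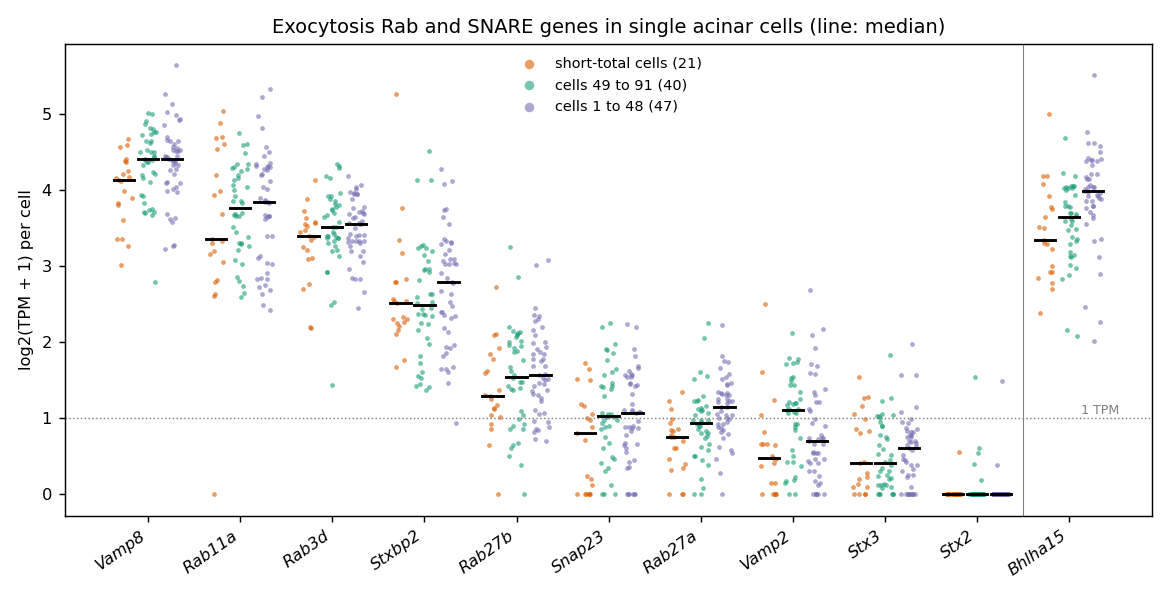
Level of each gene in each cell, as log2(TPM + 1), ordered by mean TPM, with Bhlha15 at the right. Each point is 1 cell, colours mark short-total cells, cells 49 to 91 and cells 1 to 48, black lines are medians and the dotted line is 1 TPM. Vamp8, Rab11a, Rab3d and Stxbp2 lie well above the line, and Stx2 lies at 0 in 100 cells.

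Among the Rabs, Rab3d, the granule Rab best known in acinar cells, was present in every cell and had the lowest CV of the 10 genes. It ranged from 1.72 TPM in cell 84 to 19.3 TPM in cell 85, with a median of 10.3 TPM and a mean of 10.57 ± 3.43 TPM. Its CV between cells was 0.325, and its squared CV was 0.537 times the trend, the value typical of genes of the same mean. By that measure Rab27a, at 0.473 times, was lower still. Rab27b, which with its relative Rab27a binds effectors that tether secretory granules, was at 0 in 2 cells, had a median of 1.87 TPM and peaked at 8.55 TPM in cell 51. It was detected in 85 cells (78.7%, exact 95% interval 69.8% to 86%). Rab27a ranged from 0 to 3.75 TPM with a median of 0.965 TPM, and was detected in 50 cells (46.3%, 36.7% to 56.2%). Rab3d exceeded both Rab27b and Rab27a in every cell, and its mean was 4.84 times that of Rab27b. Rab27b exceeded Rab27a in 81 cells. Both had medians near the 1 TPM level and the depth per cell is unknown, so their order in the remaining cells is uncertain.

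Rab11a, a Rab of recycling endosomes and apical delivery, had a level near that of Rab3d but a wider spread. It was at 0 in 1 cell, the cell of fewest genes, had a median of 13.3 TPM and peaked at 39.5 TPM in cell 25, with a mean of 13.9 ± 7.36 TPM. Its squared CV was 1.65 times the trend, below the level of 2 times used to call a gene variable. Rab11a exceeded Rab3d in 68 cells (63%, 53.1% to 72.1%), and the ranges of both genes overlapped widely. Rab3d, Rab27a and Rab11a all lie on chromosome 9 but not next to each other (GRCm38, 21907491 to 21918192, 73044854 to 73097629 and 64715299 to 64737758). Rab27b lies on chromosome 18 (69979131 to 70141605).

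Of the vesicle SNAREs, Vamp8 outweighed Vamp2 in every cell. Vamp8, the VAMP on which most regulated enzyme release depends in the mouse pancreas, had the highest mean of the 10 genes. It ranged from 5.94 TPM in cell 53 to 49.1 TPM in cell 26, with a median of 19.8 TPM and a mean of 19.6 ± 6.89 TPM. Vamp2, the VAMP of synaptic vesicles that is also found on zymogen granules, was 0 in 13 cells, had a median of 0.67 TPM and reached 5.47 TPM in cell 43. The second highest, 4.69 TPM, was in cell 96, the cell with stellate markers, whose part in it was not tested. It was detected in 43 cells (39.8%, 30.5% to 49.7%). The mean of Vamp8 was 19.8 times that of Vamp2, and no cell had more Vamp2 than Vamp8. Vamp8 is on chromosome 6 (72385223 to 72390703) and Vamp2 on chromosome 11 (69088490 to 69092384).

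The target SNAREs were near the limit of what single cells showed. Stx2, a syntaxin placed at the apical membrane of acinar cells in the rat, was at 0 in 100 cells and reached 1 TPM in 2 (1.85%, 0.225% to 6.53%), cell 66 at 1.92 TPM and cell 40 at 1.81 TPM. Cell 40 is the cell that also held endothelial markers, whose part in this value was not tested. Stx3, a syntaxin found on zymogen granules themselves, ranged from 0 to 2.95 TPM, the highest in cell 31, with a median of 0.375 TPM. It was detected in 18 cells (16.7%, 10.2% to 25.1%). Snap23, the widely expressed relative of the neuronal SNAP-25, ranged from 0 to 3.76 TPM with a median of 0.99 TPM and was detected in 54 cells. Its highest value was in cell 63, which also held macrophage markers, whose part in it was not tested. The next, 3.73 TPM, was in cell 38. The TPM keep no read depth, so a 0 shows only that a gene is listed at 0 there, and a low share of cells is not a share of cells lacking the transcript. Stx2 is on chromosome 5 (128984557 to 129008574), Stx3 on chromosome 19 (11775118 to 11819403) and Snap23 on chromosome 2 (120567671 to 120601255).

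Stxbp2, which encodes Munc18-2, the SM protein of apical exocytosis in epithelia, was in every cell at some level. Its lowest value was 0.92 TPM, in cell 27, its median 4.83 TPM and its highest 37.7 TPM, in a short-total cell. The next highest cell, cell 60, held 21.9 TPM. It was the only 1 of 9 tested members at or above 2 times the trend, at 2.31 times, against 12% of the 7227 genes tested (those detected in at least 10% of cells). That call rested on the cell of highest Stxbp2, since without it the value was 1.55 times, and in full-total cells alone it was 1.77 times. Stxbp2 exceeded Stx3 in all cells but 1, with a mean 11.6 times higher. Stxbp2 is on chromosome 8 (3630955 to 3643644).

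Relatives of the 10 genes were compared from a list of 124 further exocytosis and membrane traffic genes, of which 121 matched a row. Rab3d, Rab11a, Vamp8 and Stxbp2 had the highest mean among their close relatives that matched a row. Vamp7 matched none, so Vamp8 was not compared with it. Rab3a, the synaptic Rab3, averaged 1.76 ± 1.94 TPM in 67 detecting cells, and Rab3b and Rab3c were detected in 0 cells, where counting error allows up to 3. Among VAMPs, Vamp3 followed Vamp8 at 2.38 ± 1.65 TPM, above Vamp2. The Munc18 gene Stxbp3 averaged 1.12 ± 1.40 TPM. The SNAP and syntaxin families differed in this. Snap47 averaged 2.53 ± 1.52 TPM and was detected in 93 cells, more than Snap23, and the plasma membrane syntaxin Stx4a averaged 0.716 ± 1.24 TPM in 29 detecting cells, close to Stx3. Syntaxins of inner membranes were higher, with medians of 7.81 TPM for Stx5a, 2.70 TPM for Stx18 and 1.72 TPM for Stx8. The neuronal SNARE Snap25 was detected in 0 cells.

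**Figure D2:**
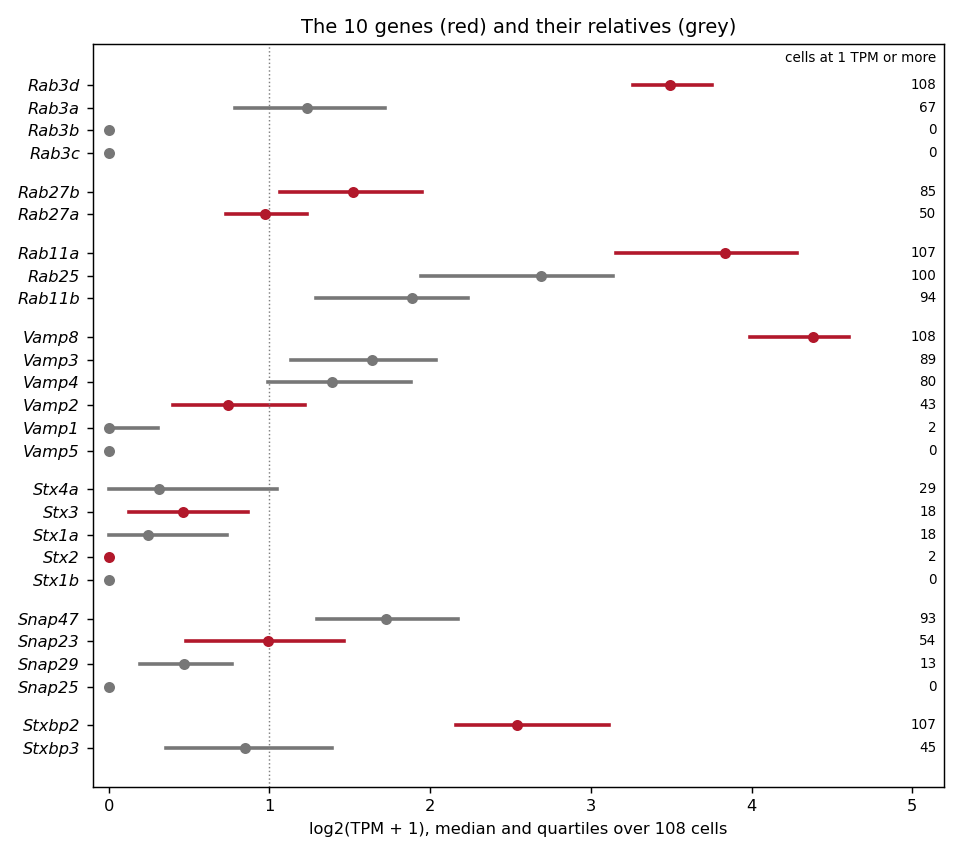
Median (point) and quartiles (bar) of log2(TPM + 1) over all cells for the 10 genes (red) and relatives in the same family (grey), with the number of cells at or above 1 TPM at the right. Rab3d, Rab11a, Vamp8 and Stxbp2 lead the relatives shown, whereas Snap47 lies above Snap23 and the medians of the plasma membrane syntaxins shown lie below the 1 TPM line.

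Over the 121 genes, 21 were detected in at least 90% of cells, 41 in at least 50% and 30 in no cell. The 90% level was reached by 9.05% of the 19969 gene rows above 0 in any cell. That base leaves out rows at 0 everywhere, which the list keeps. The other counts were not set beside all rows and are descriptions only. The calcium sensor and priming group held more of the undetected genes than any other role, 14 of its 21. Among them were the synaptotagmins Syt1 and Syt7 and the complexins Cplx1 and Cplx2, which clamp or trigger synaptic fusion. Syt7 and Cplx2 were above 0 in 10 and 25 cells. Others of the group were detected, with Syt3 in 39 cells, Unc13b in 30 and Unc13d in 24. In the same group Tpd52, a calcium-responsive phosphoprotein of acinar secretion also called CRHSP-28, was in every cell at 10.3 ± 3.63 TPM, and the vesicle chaperone Dnajc5 averaged 1.83 ± 1.22 TPM. Of the 16 Rabs, 5 were detected in at least 90% of cells, led by Rab1a of ER to Golgi traffic at 13.9 ± 4.90 TPM and Rab7 of late endosomes at 8.19 ± 2.96 TPM. Rab26, another granule Rab, averaged 6.76 ± 3.30 TPM.

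Among genes of general membrane fusion Napa had a mean near that of Rab3d. Napa, the adaptor that helps to take SNARE complexes apart, averaged 11.1 ± 3.84 TPM, and its partner ATPase Nsf 1.93 ± 1.65 TPM. Several SNAREs of ER and Golgi traffic had higher means than Stx2, Stx3 and Snap23, with Bet1 at 9.62 ± 4.10 TPM, Sec22b at 9.28 ± 4.17 TPM and Stx5a at 8.02 ± 3.56 TPM. The SM gene Scfd1, of ER to Golgi traffic, averaged 4.19 ± 1.94 TPM. Stxbp6, listed beside the SM genes but encoding amisyn, a syntaxin-binding protein of another kind, averaged 1.66 ± 1.14 TPM. Rab effectors were mostly low. Gdi2, which recycles Rabs through the cytosol, averaged 6.89 ± 2.63 TPM, and Sytl1, a Rab27 effector, 2.62 ± 1.50 TPM. Exocyst subunits, which tether vesicles to the plasma membrane, were led by Exoc7 at 1.75 ± 1.89 TPM and Exoc4 at 0.963 ± 1.04 TPM. Among motors the light chain Dynll1 averaged 8.29 ± 5.60 TPM and the acinar myosin Myo5c 0.835 ± 0.459 TPM. In the granule group Sycn (syncollin) averaged 25394 ± 5571 TPM and Zg16 17849 ± 2977 TPM, far above all of these. Gp2 and Cuzd1 were also far higher, at 1366 ± 322 TPM and 346 ± 98.9 TPM, whereas the other 6 genes measured in that group averaged between 0.298 and 3.76 TPM. Of 75 list genes tested, 7 were at or above 2 times the trend (Rab25, Dynll1, Stx4a, Stxbp5, Vps45, Exoc1 and Sycn), from 2.03 times for Dynll1 to 4.20 times for Vps45. That is no larger a share than the 12% of all tested genes.

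Of the 10 genes Rab3d followed Bhlha15 most closely. Bhlha15 was detected in every cell, from 3.05 TPM in cell 15 to 44.9 TPM in cell 8, with a median of 12.8 TPM. Rab3d had a Spearman correlation of 0.43 with it over all cells (Pearson 0.51 on log2(TPM + 1), and 0.49 without the 2 cells farthest from the Bhlha15 median). Rab3d stood at 14.7 TPM in cell 8, and at 16.6 TPM in the cell second in Bhlha15, at 31.2 TPM. In cell 84, where Rab3d was lowest, Bhlha15 stood at 3.25 TPM, and that cell was among the 10 of fewest genes, with 3122. Low Bhlha15 did not always go with so low a Rab3d. Cell 15 held 6.15 TPM of Rab3d, and cell 54, with Bhlha15 at 3.49 TPM, held 9.59 TPM. A correlation at or above that of Rab3d was found in 0.65% of the genes tested, 47 genes with Rab3d included. The median over those genes was 0.098.

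The other 9 genes lay within the bulk of genes. Rab27b (0.21), Stxbp2 (0.20), Snap23 (0.20) and Rab27a (0.18) lay between the 74.7th and 80.3rd percentile of tested genes. Stx3 (0.079), Vamp2 (0.067), Vamp8 (0.031) and Rab11a (0.0016) lay below the median gene. Stx2, at 0.0027, had too few values above 0 to be ranked. All 9 members tested had a correlation above 0, as had 78.8% of genes tested, so the sign alone does not set them apart. With median-of-ratios scaling 6 of the 10 were above 0. The median over the 10 genes was 0.13. It was -0.015 with the number of genes detected taken out and -0.041 in cells 49 to 91, with 4 of the 10 above 0 in each of these. In the same settings the median over tested genes was 0.0026 and 0.051.

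**Figure D3:**
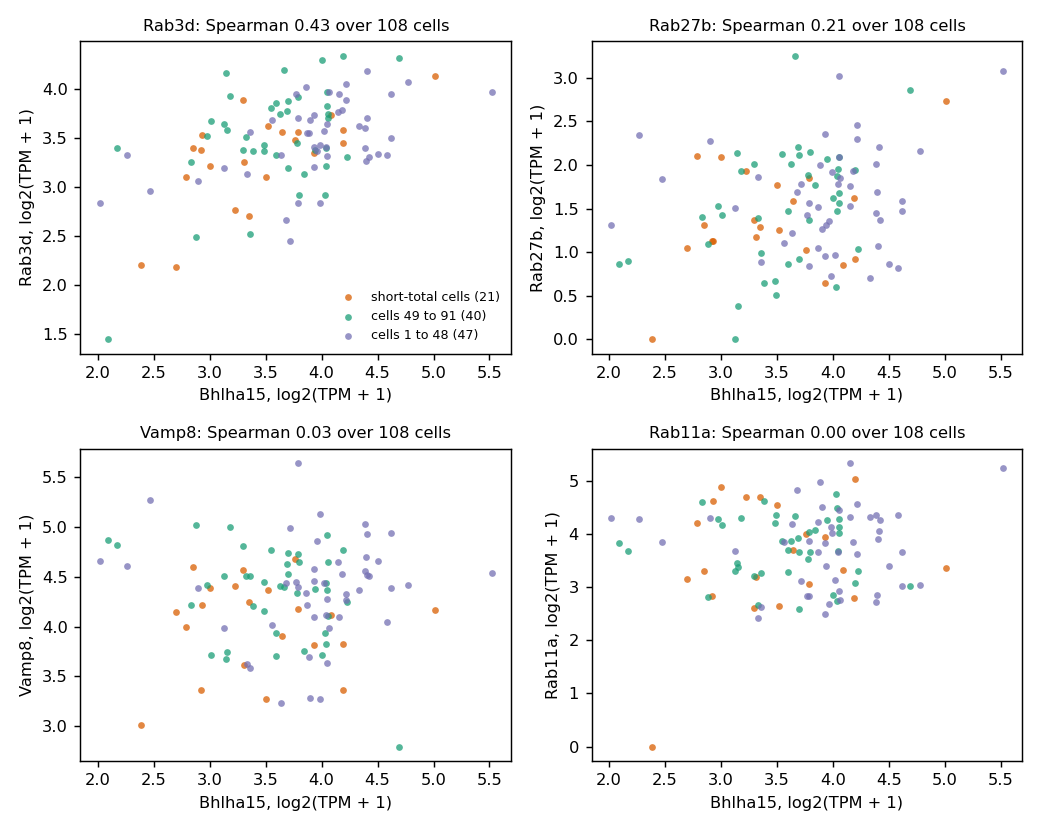
Rab3d, Rab27b, Vamp8 and Rab11a against Bhlha15, each as log2(TPM + 1), with 1 point per cell coloured by short-total cells, cells 49 to 91 and cells 1 to 48. Rab3d tends to be higher where Bhlha15 is higher, with exceptions (Spearman 0.43), while Vamp8 and Rab11a show no such trend (0.031 and 0.0016).

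**Figure D4:**
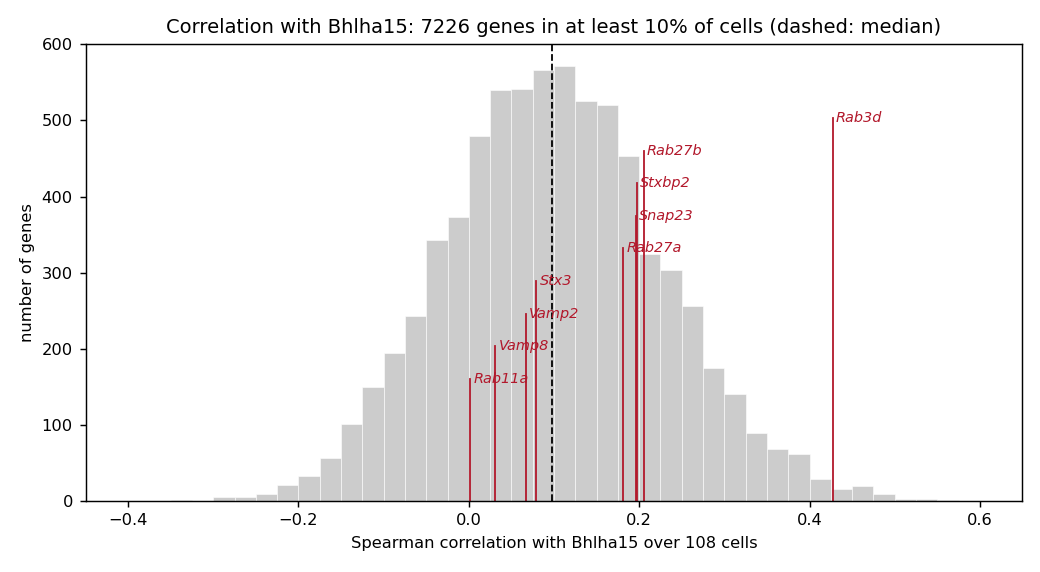
Number of genes (y axis) by Spearman correlation with Bhlha15 (x axis) over all cells, for the genes detected in at least 10% of cells, with the 9 exocytosis genes tested marked in red and the median gene dashed. Rab3d lies in the right tail at 0.43, and the other 8 lie inside the bulk.

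The link of Rab3d with Bhlha15 was seen in each set of cells, at different strength. The Spearman correlation was 0.64 in the 21 short-total cells, 0.25 in the 40 cells numbered 49 to 91 and 0.46 in the 47 cells numbered 1 to 48. In cells 49 to 91 it lay at the 87th percentile of tested genes, against the 99.4th in short-total cells and the 98.5th in cells 1 to 48. Both genes followed the number of genes detected (0.49 for Rab3d and 0.46 for Bhlha15). With that number taken out of the ranks the correlation was 0.26, and with median-of-ratios scaling 0.27, at the 98.5th and 98.7th percentile of genes treated alike. It was 0.42 without cells 31 and 40, and 0.39 without the 10 cells of fewest genes. Over all settings tried it ran from 0.25 to 0.64. The summed level of 8 ductal markers (14.3 to 383.1 TPM, with Cftr detected in no cell) was also correlated with Rab3d (0.43) and with Bhlha15 (0.29), and its part in the result was not tested. Other genes also varied between sets. Snap23 stood at 0.0072 in short-total cells, -0.045 in cells 49 to 91 and 0.46 in cells 1 to 48, Rab27b at 0.034, 0.38 and 0.091, and Stxbp2 at 0.26, 0.055 and 0.29 in the same sets.

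Basic helix-loop-helix factors bind DNA at E-boxes of the form CANNTG, and Bhlha15 dimers bind the form CATATG. Promoter windows of 300 bases (250 before to 50 after the RefSeq start, build GRCm38.p6) were found for 8 of the 10 genes, with 10 windows in all. Each motif reads the same form on both strands, and CATATG is itself a CANNTG. Of 32851 mouse windows 72.3% held a CANNTG and 3.91% held CATATG. The Rab3d window (minus strand, chr9:21918134-21918433) is shown because Rab3d followed Bhlha15, and it held no CANNTG. Rab27a has a second start whose window (plus strand, chr9:73063898-73064197) held 6 matches, among them the only CATATG in the windows of these genes, at position -26 from the start. The Stxbp2 window (plus strand, chr8:3630859-3631158) is shown beside them as that of a gene with a weak correlation and 4 matches. Capitals mark each CANNTG.
Rab3d: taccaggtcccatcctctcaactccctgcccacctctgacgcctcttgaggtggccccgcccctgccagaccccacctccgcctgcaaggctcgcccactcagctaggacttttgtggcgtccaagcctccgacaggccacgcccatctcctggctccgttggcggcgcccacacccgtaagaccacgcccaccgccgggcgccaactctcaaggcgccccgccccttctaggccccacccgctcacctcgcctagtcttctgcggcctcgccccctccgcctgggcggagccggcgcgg
Rab27a second start: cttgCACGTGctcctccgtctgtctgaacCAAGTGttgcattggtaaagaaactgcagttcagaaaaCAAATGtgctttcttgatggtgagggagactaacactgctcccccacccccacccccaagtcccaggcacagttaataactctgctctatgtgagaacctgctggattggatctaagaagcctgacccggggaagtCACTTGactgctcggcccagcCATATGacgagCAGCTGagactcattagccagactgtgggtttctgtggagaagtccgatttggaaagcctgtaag
Stxbp2: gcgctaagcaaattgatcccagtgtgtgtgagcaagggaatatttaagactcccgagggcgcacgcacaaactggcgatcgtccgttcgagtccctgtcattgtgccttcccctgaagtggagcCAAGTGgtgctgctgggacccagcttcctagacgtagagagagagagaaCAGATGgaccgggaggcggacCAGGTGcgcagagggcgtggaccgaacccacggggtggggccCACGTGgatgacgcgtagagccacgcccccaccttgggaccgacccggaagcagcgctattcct
The windows of Vamp8 and Snap23 also held no CANNTG, and those of Rab11a, Stx3 and the first Rab27a start held 1 each. Of the Stx2 windows, 1 held a match. Matches describe letters in these windows, not binding.

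The 10 genes varied largely apart from one another. Over their 45 pairs the median Spearman correlation was 0.079, against 0.056 over all pairs of tested genes, and 36 pairs were above 0, as were 70.2% of those of tested genes. The median was 0.018 with median-of-ratios scaling and -0.030 with the number of genes detected taken out. The highest was that of the granule Rabs Rab3d and Rab27b, at 0.35 (Pearson 0.39), the 99.6th percentile of pairs of tested genes. It was the only pair at or above 0.3, which 1.36% of pairs of tested genes reached. In short-total cells, cells 49 to 91 and cells 1 to 48 it stood at 0.11, 0.48 and 0.27. With median-of-ratios scaling it was 0.22, and with the number of genes detected taken out 0.18. Vamp8 and Rab27a followed at 0.24, with 0.29, 0.10 and 0.20 in those sets. The Rab and the VAMP of highest mean among the 10, Rab11a and Vamp8, stood at -0.078, and Vamp8 and Rab3d at 0.025. The lowest pair was Rab11a and Stx3, at -0.15.

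**Figure D5:**
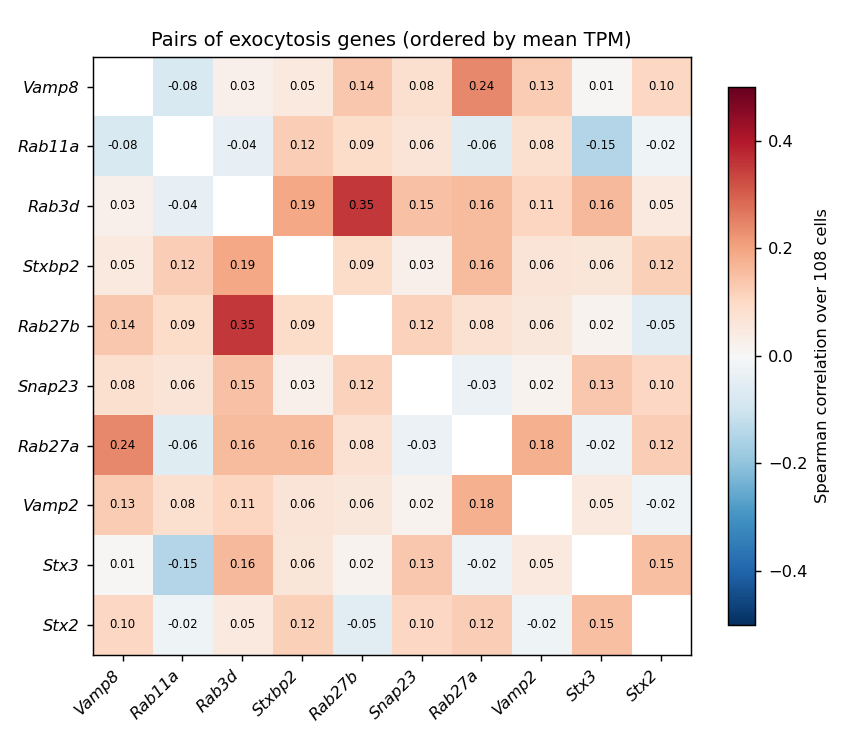
Spearman correlation over all cells for each pair of the 10 genes, ordered by mean TPM, with the value in each cell of the grid (red above 0, blue below). Rab3d with Rab27b (0.35) is the strongest pair, and most others lie between -0.1 and 0.2.

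Each well detected gene had its own nearest genes. Among 3729 genes detected in at least 50% of cells, those most like Rab3d were Hid1 (Spearman 0.54), known for its role in dense-core granule formation in worms and mice, and the mTOR-binding protein gene Deptor (0.51). Bhlha15 came 37th. Both held in each set, at 0.47, 0.68 and 0.35 for Hid1 and 0.35, 0.56 and 0.44 for Deptor in short-total cells, cells 49 to 91 and cells 1 to 48. For Rab27b they were Ssr3, a subunit of the translocon-associated complex of the ER (0.48), and Cat, catalase (0.48). For Vamp8 they were Atp6v1f, a subunit of the proton pump of acidic organelles (0.52), and Atp5g1 of the mitochondrial ATP synthase (0.48). For Rab11a they were the small GTPase genes Rheb (0.40) and Sar1b, of ER exit (0.39). For Snap23 they were Qsox2, a sulfhydryl oxidase (0.51), and the chloride channel protein gene Clic4 (0.41), and for Stxbp2 the cytokine receptor gene Il10rb (0.37) and the mitochondrial tRNA synthetase gene Yars2 (0.36). Not all held in each set. In short-total cells Clic4 stood at -0.18, Yars2 at 0.092 and Atp5g1 at 0.12, and in cells 49 to 91 Rheb stood at 0.18. These were the highest of 3729 values for each gene and are descriptions only.

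Within the list of further genes, Sytl1 came nearest to Bhlha15 among those in at least 50% of cells, with a Spearman correlation of 0.40 against 0.43 for Rab3d. Dnajc5 (0.34) and Rab11b (0.32) followed. The lowest were Sycn (-0.15), Exoc7 (-0.089) and Scamp2 (-0.052). These highest and lowest values were picked from the ranked list and are descriptions only. They were not worked out by cell set or with the number of genes detected taken out. The other Bhlha15-linked granule Rab, Rab26, stood at 0.26, the 89.3rd percentile of tested genes. The median over the 75 list genes tested was 0.12, near the median gene.

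Most of the genes were a little lower in short-total cells, as most genes were. Of the 9 tested, 7 had a lower mean log2(TPM + 1) in short-total than in full-total cells, beside 77.6% of all tested genes. The median difference was -0.20 over the 10 genes and -0.15 over tested genes, and with median-of-ratios scaling these were -0.030 and -0.017. The largest differences were those of Rab27a (-0.38), Snap23 (-0.34) and Vamp8 (-0.34). Vamp8 had medians of 16.7 TPM in short-total cells, against 20.3 TPM in full-total cells, and the ranges overlapped. Rab27a was detected in 3 of 21 short-total cells (14.3%) and 47 of 87 full-total cells (54%). By this mean Stx3 (0.01) and Stxbp2 (0.01) did not share the shift, but their medians were lower in short-total cells. These were 0.33 against 0.43 TPM for Stx3 and 4.72 against 5.2 TPM for Stxbp2. The highest Stxbp2 value, 37.7 TPM, was in a short-total cell.

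Cells 49 to 91 and cells 1 to 48 differed little in these genes. Of the 9 tested, 6 were lower in cells 49 to 91, beside 60.2% of tested genes, with medians of -0.03 over the 10 genes and -0.04 over tested genes. By mean log2(TPM + 1), Snap23 (0.07) and Rab3d (0.02) were slightly higher in cells 49 to 91. Their medians were slightly lower there, at 1.035 against 1.09 TPM for Snap23. Vamp2 was the most raised of the members in cells 49 to 91, at 0.20, a difference larger than in 93.8% of tested genes. Its median was 1.17 TPM in cells 49 to 91 and 0.63 TPM in cells 1 to 48. It was detected in 60% and 31.9% of these cells. Rab27a differed by -0.21, with medians of 0.915 and 1.21 TPM in the same sets and detection in 40% and 66%. Stxbp2 differed by -0.18, with medians of 4.62 and 5.94 TPM, and Bhlha15 by -0.37, with medians of 11.5 and 14.9 TPM. Rab3d differed by 0.02, with medians of 10.47 and 10.76 TPM, so the difference in Bhlha15 between these sets was not seen in Rab3d. The bound at cell 48 came from earlier results of these data. With no animal or day in the labels, a difference between sets and one between mice or runs cannot be told apart.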

How the data were processed

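Single cells were measured by the authors with a modified SMART-seq2 protocol, per the labels, and 1 table of TPM rounded to 2 decimals was deposited. The unit was taken from the values. Per the submitters' processing notes, STAR 2.4.2a, RSEM 1.2.21, edgeR and mm10 were used, in roles not stated, and the annotation is not given in the sources used here. Per the labels 24 cells carried spike-in RNA. The labels do not say which, and the spike-ins were left aside. TPM keep no depth, so the precision per cell is unknown. Binomial (Clopper-Pearson) 95% intervals cover counting error only.

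Columns were matched to cells by number, and 44548 rows to symbols. Members and lists were chosen with earlier results of these data known. Named genes were all members, Bhlha15, and from the further list the 2 of highest mean in each role, those at or above 2 times the trend and the 3 highest and 3 lowest correlations with Bhlha15, plus the nearest 2 genes of each member in at least 50% of cells. Other relatives were named after their values were seen. The trend was a lowess fit (span 0.3) of squared CV on mean TPM over 7227 genes, with functions tested on simulated data. Positions are whole genes from GENCODE M21 on GRCm38 (mm10). No exon of another gene with TPM above 0 overlapped a member, and the only transcript of another gene at or above 95% identity over 200 bases, Gm6615 for Snap23, was at 0. Python 3.11.15, pandas 2.3.3, scipy 1.17.1 and statsmodels 0.14.6 were used. All cells entered the main values, and doublets were not called.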

Additional observations from a re-analysis of the deposited data

How the results depend on the processing

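The 4 genes in at least 90% of cells were counted under each of 5 other detection levels and cell sets, and the count was between 3 and 6. The count of variable members was 0 in full-total cells and 0 without the cell of highest Stxbp2, a setting chosen after the data were seen. The median correlation of the 10 genes with Bhlha15, 0.130, was 0.205 in short-total cells, 0.0642 in full-total cells, 0.181 over the 9 members in at least 10% of cells, 0.0616 with rescaling without the 50 most abundant genes and 0.0437 with median-of-ratios scaling. It changed sign in cells 49 to 91 (-0.0406) and with the number of genes detected taken out (-0.0151). The median over tested genes was 0.0505 and 0.00263 in these. The median over member pairs, 0.0786, was 0.0176 with median-of-ratios scaling, 0.00920 in cells 49 to 91 and -0.0299 with genes detected taken out. The median difference of short-total minus full-total cells was -0.350 with a pseudocount of 0.1, -0.146 with TPM rescaled to 1000000 and -0.0298 with median-of-ratios scaling, and that of cells 49 to 91 minus cells 1 to 48 turned to 0.0450 with the last. The cause of these changes was not tested. Each member's mean TPM stayed within 1 SD except under rescaling without the abundant genes, which changes the total. Leaving out the 10 cells of fewest genes, also added after the data were seen, moved both medians by less than 0.05. No paired analysis was possible because all cells form 1 group. Values under about 1 TPM are limited by unknown depth.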

Other observations

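Among genes in at least 50% of cells, Cckar, the receptor for the secretagogue cholecystokinin, followed Bhlha15 most closely, at a Spearman correlation of 0.56 over all cells, with 0.58 in short-total cells, 0.48 in cells 49 to 91 and 0.47 in cells 1 to 48, and a mean of 30.5 TPM. It was followed by 4833439L19Rik (0.53), by Rnh1, an inhibitor of ribonucleases (0.53), by Sec23b, a coat subunit of ER exit vesicles (0.52), and by 6430548M08Rik (0.50). Sec23b stood at -0.20 in short-total cells, against 0.55 in cells 49 to 91 and 0.51 in cells 1 to 48.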
